A study of Mus musculus with 2 samples.

Results

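Genes of 5 splicing families were compared between naive gamma/delta T cells and naive CD8+ alpha/beta T cells. The members were taken by gene symbol alone: Srsf and Sf3a or Sf3b followed by a digit, Hnrnp, Snrp, and Prpf followed by a digit. They comprised 59 genes of the 18193 with a probe set to which the array annotation gives a single symbol, read by 171 of the array's 45101 probe sets. Hnrnpa3, Snrpa, Snrpd1 and Snrpd2, which are named only beside other genes, are not among the 59. By family there were 10 Srsf genes, 19 Hnrnp genes, 9 Sf3 genes, 9 Snrp genes and 12 Prpf genes. All 59 symbols were the same in the RefSeq gene table.

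Both populations were taken from C57BL/6 lymph nodes and enriched by negative selection. The gamma/delta sample is labelled CD44- and the alpha/beta sample CD8+, and the labels state neither age nor treatment nor how many mice were used. Each population was hybridised to 1 Affymetrix MOE430 2.0 array, on which several short oligonucleotides form a probe set and a gene may have more than 1 probe set. With 1 array per population neither an error nor a test can be given, and every ratio below compares these 2 RNA preparations only. Fewer cells with a transcript and less transcript per cell cannot be told apart in such samples.

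Splicing removes introns from pre-mRNA in the spliceosome, whose core is built from small nuclear RNAs and their proteins. Sm proteins (Snrp genes) form a ring on most of these RNAs, the SF3a and SF3b complexes (Sf3 genes) hold the U2 particle at the intron's branch site, and PRPF proteins assemble and drive the tri-snRNP and the catalytic steps. SR proteins (Srsf genes) bind exons and mostly promote their inclusion, while hnRNP proteins coat nascent RNA and often silence splice sites. In T cells the balance of such factors is best known from CD45, whose variable exons are skipped on activation under the influence of Hnrnpll.

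Signals are the scaled linear intensities as deposited. Where a gene has several probe sets, the brightest by mean log2 signal stands for it, and signals under the floor of 243.3, the higher of the medians of both arrays, were raised to it. A gene under the floor on 1 array then has only a bound ("at least"), and one under it on both has no ratio. Log2 ratios are gamma/delta over alpha/beta, and 2-fold is the call. Probe sets of a gene give the only spread there is to see, with a pooled SD of 0.50 on the log2 scale over 35 member genes and 0.50 over 3317 genes of the whole array.

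Cd8a read 8852 in alpha/beta against 731 in gamma/delta cells, while the receptor segment Trgv4 read 170 and 12522, both as the labels say. Cd44, although the gamma/delta sample is labelled CD44-, read 525 there against 421 in alpha/beta cells, above the floor on both arrays. All 6 measured pan-T-cell markers were above the floor on both arrays, with signals that summed to 89375 (gamma/delta) and 58607 (alpha/beta). Of 6 B cell markers, 3 and 2 were above it, with sums of 1794 and 1447. Ms4a1 (858 and 616) and Blnk (374 and 263) were above it on both arrays, and Cd79b (254) in gamma/delta cells. Cd79a, Pax5 and Cd22 were under it on both. Of 7 myeloid markers, 1 and 3 were above it (sums of 3694 and 2692). Cst3 (2787 and 1691) was above it on both arrays, and Itgam (285) and Fcer1g (380) in alpha/beta cells only. Lyz2, Csf1r, Cd14 and Itgax were under it on both. Of 4 NK markers, 2 and 1 were above it, with sums of 7784 and 1298 that are nearly all Nkg7 and Gzma, while Ncr1 and Tyrobp were under it on both. None of 4 erythroid and platelet markers was above it (sums of 333 and 497). Of 5 stromal markers, 4 and 3 were (sums of 2199 and 2449). The 3′ to 5′ signal ratio of actin, a measure of RNA integrity, was 6.99 for gamma/delta and 3.12 for alpha/beta RNA, and that of Gapdh was 3.06 and 3.24. The part of other cells and of RNA integrity in the ratios below was not tested.

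Read by gene, splicing genes were about as alike in both populations as genes over the array. Of the 59 genes, 57 (96.6%) had a ratio, against 65.5% of the 18193 genes. Only Srsf12 and Snrpn, by its probe set with 1 symbol, had no signal above the floor. The median log2 ratio of the 57 was -0.01, beside 0.03 over 11914 genes. Within 1.5-fold in either direction lay 39 of the 57 (68.4%), as did 69.8% of all genes with a ratio. At 2-fold, 3 members were higher in gamma/delta cells, where 5.82% of all genes were, and 4 were higher in alpha/beta cells, where 3.93% were. The members' shares of 5.26% and 7.02% are near these backgrounds. The split of 3 against 4 was 4 against 3 after quantile normalization and 5 against 3 after an intensity-dependent loess, where 5.63% and 4.02%, and 5.86% and 3.79%, of all genes were. At 1.5-fold, 9 members were higher on each side, beside 17% and 13.2% of all genes. By probe set 16 of 156 were higher in gamma/delta cells, a smaller share than the 15.5% over the array. In alpha/beta cells 35 of 156 were higher, a larger share than the 14.4% over the array. By gene the members' median moved to 0.03 and 0.063 under these scalings, while that of all genes stayed between 0.03 and 0.04.

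**Figure D1:**
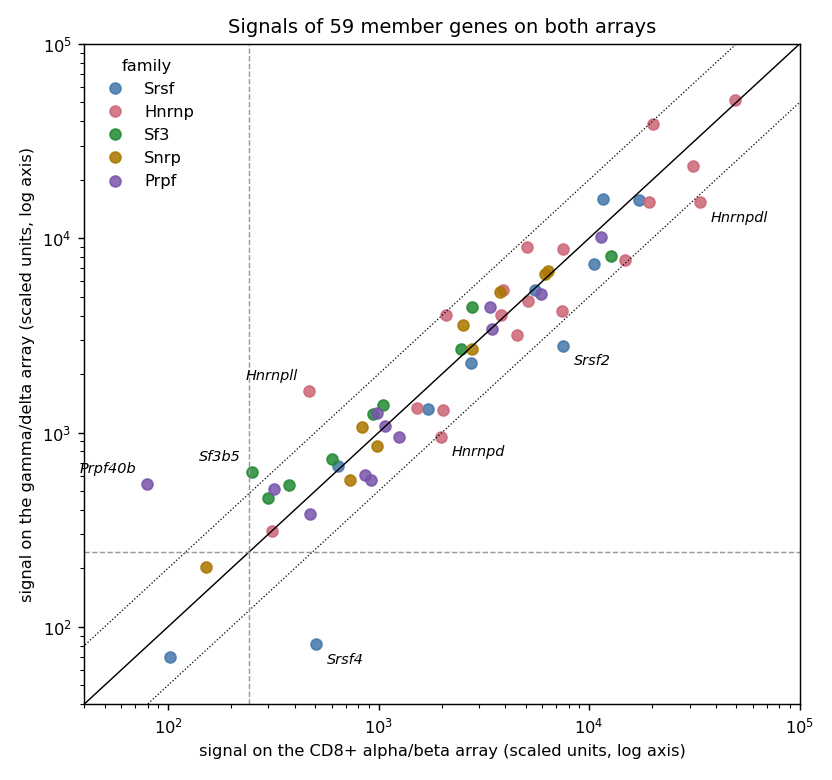
Signals of the 59 member genes on the alpha/beta array (x, log axis) and the gamma/delta array (y, log axis), in scaled units and 1 point per gene. The solid line marks equal signals, dotted lines 2-fold and dashed lines the floor of 243.3. The 7 named genes lie beyond 2-fold, and Prpf40b and Srsf4 do so with 1 signal under the floor.

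The 7 genes past 2-fold were Hnrnpll, Sf3b5 and Prpf40b, higher in gamma/delta cells, and Srsf2, Hnrnpdl, Hnrnpd and Srsf4, higher in alpha/beta cells. By values raised to the floor, Prpf40b (log2 ratio of at least 1.16) and Srsf4 (a bound of -1.05) were just inside the call. With no floor they were at 2.77 and -2.62. Of genes above the floor on both arrays, the nearest inside the call were Sf3b5 (1.33) and Hnrnpd (-1.06). Just outside the call were Hnrnpu (0.94) and Hnrnpa1 (-0.94). Read by probe set, 5 of 156 were 2-fold higher in gamma/delta cells (5.2% of all probe sets were) and 10 were 2-fold higher in alpha/beta cells (4.37% of all were). Of these 156, 93 were lower in gamma/delta cells (59.6%), beside 49.5% of 20297 probe sets over the array. The median log2 ratio of the 156 was -0.13, beside 0.01 over the array. By gene, however, the members divided into 28 above and 29 below 0.

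The hnRNP genes have 55 of these 156 probe sets. By gene 11 of 19 were lower in gamma/delta cells (57.9%, beside 47.6% of all genes). By probe set 37 of 55 were lower (67.3%, beside 49.5% over the array). The family's median log2 ratio was -0.10 by gene and -0.32 by probe set. Without Hnrnpa1, Hnrnpd and Hnrnpdl, left out after their values were seen, 8 genes were above and 8 below 0. Their median was 0.03.

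Hnrnpll had the largest ratio of the members above the floor on both arrays. It encodes the hnRNP L paralogue that represses variable exons of CD45. Its main probe set read 1637 in gamma/delta against 468 in alpha/beta cells, a difference of 3.50-fold. A second probe set read 583 and 412, which is 1.42-fold in the same direction. The gene was past 2-fold under each of the 8 alternative scalings, floors and probe set rules, with log2 ratios from 1.15 to 1.81. Its paralogue Hnrnpl, which binds the same CA-rich elements, read 310.1 and 312, with no difference to see, and the other probe set of Hnrnpl was under the floor on both arrays.

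A, B and D type genes had 19 of the 37 lower hnRNP probe sets. These proteins carry paired RNA recognition motifs and include splicing repressors and regulators of mRNA decay. By gene 5 of 6 were lower in gamma/delta cells, and by probe set 19 of 24, with a median over the 24 of -0.47. Of the 19, Hnrnpdl had 7, Hnrnpab 6 and Hnrnpa1 3, so the probe set count rests mostly on these genes.

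Hnrnpdl, a relative of the AU-rich element binding protein Hnrnpd, was lower on every one of its 7 probe sets. The brightest read 15319 in gamma/delta against 33739.9 in alpha/beta cells, which is 2.20-fold higher in alpha/beta cells. The next read 3833 and 10699.8, a log2 ratio of -1.48. Of the other 5, the signals were 1824 and 4276, 1828 and 3476, 2085 and 2883, 359.7 and 844, and 105 and 386, the last under the floor in gamma/delta cells. Every pair has the same order, and 4 of the 7 passed 2-fold. After quantile normalization the gene's log2 ratio was -0.95 and after loess -0.91, both short of the call.

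Hnrnpd itself, also called AUF1, promotes decay of mRNAs with AU-rich elements. It read 954 and 1985 on its main probe set, 2.08-fold higher in alpha/beta cells. A second probe set read 299 against 34.0, a bound in the other direction of 0.30, and the other was under the floor on both arrays. The direction of Hnrnpd therefore rests on 1 probe set. Hnrnpd and Hnrnpdl both lie on chromosome 5 in the RefSeq table.

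Hnrnpa1, a classical splicing silencer protein, was lower in gamma/delta cells on all 3 probe sets that name it alone. Their signals were 7744 against 14894, 5196 against 9165 and 357 against 513, and the first is 1.92-fold higher in alpha/beta cells, just under the call. Processed copies of Hnrnpa1 are similar in sequence, so its probes may read them too. Hnrnpab, a close relative, was lower on 6 of 7 probe sets, by log2 ratios down to -0.79, with the main one at -0.10. Hnrnpa2b1 divided evenly, with 2 of 4 probe sets on each side and log2 ratios from -0.32 to 0.30. Hnrnpa0 read 8830.2 and 7551, a log2 ratio of 0.23, and was the member of this type on the other side.

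**Figure D2:**
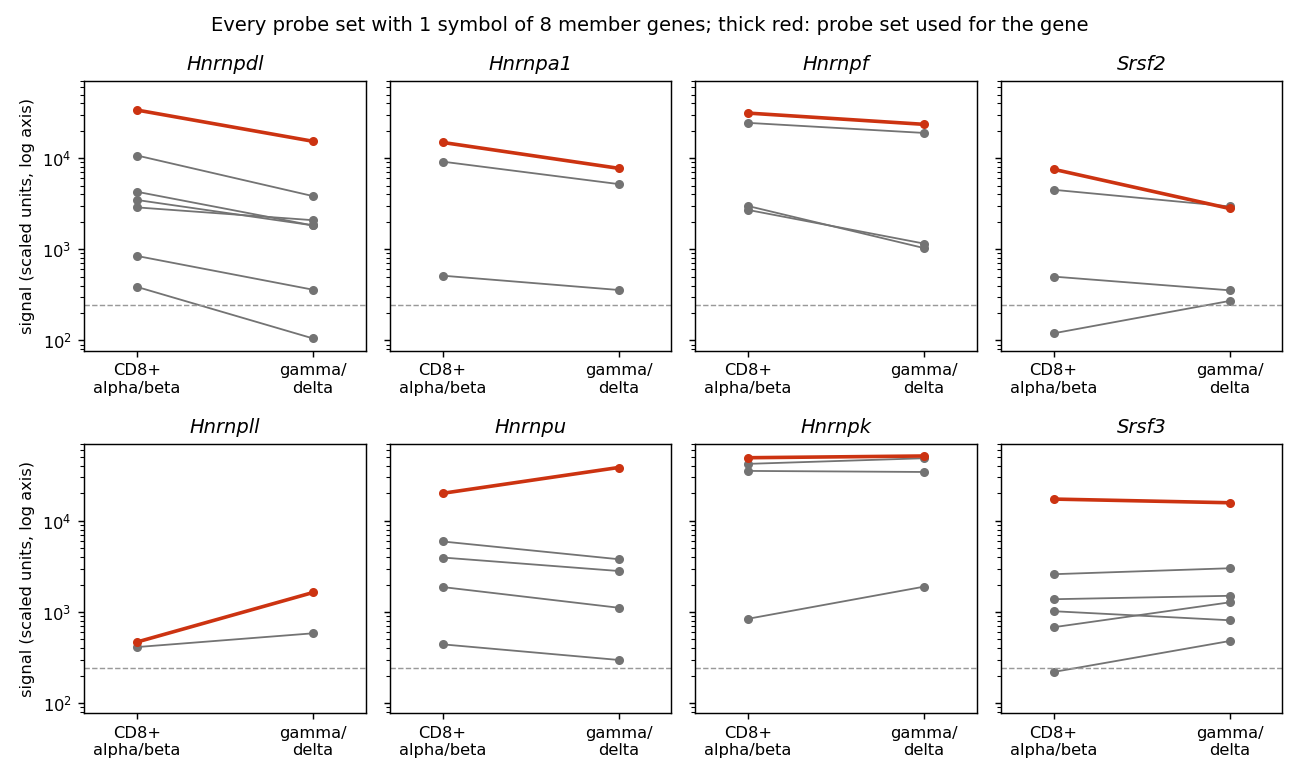
Signals (y, scaled units, log axis) on the alpha/beta and gamma/delta arrays of every probe set with 1 symbol for 8 member genes. Each line is 1 probe set, the thick red line is the one used for the gene and the dashed line is the floor of 243.3. All 7 lines of Hnrnpdl, 3 of Hnrnpa1 and 4 of Hnrnpf are lower in gamma/delta cells, both of Hnrnpll are higher, and those of Hnrnpu, Hnrnpk and Srsf3 go both ways.

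The F and H type hnRNPs bind runs of guanines beside splice sites. Hnrnpf was lower in gamma/delta cells on all 4 probe sets, but by amounts that differed. The bright pair read 23519 against 31261.5 and 18923 against 24415, log2 ratios of -0.41 and -0.37. The dim pair read 1154 against 2703 and 1030.2 against 2984, log2 ratios of -1.23 and -1.53. Whether Hnrnpf passes 2-fold thus depends on the probe set, and by the rule used it did not. Hnrnph1 was lower on both probe sets (-0.81 and -0.22), Hnrnph3 read 1309.8 and 2026, and Hnrnph2 was on the other side at 5417 and 3910.4.

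Hnrnpc, which binds uridine tracts, read 3176 in gamma/delta against 4532 in alpha/beta cells, a log2 ratio of -0.51, and its other probe sets gave -0.56 and 0.30. Of the K, M, R and U types, 5 of 6 genes were higher in gamma/delta cells by the main probe set, but only 9 of 17 probe sets were. Hnrnpu, a nuclear scaffold protein that binds RNA and chromatin, shows this most plainly. Its brightest probe set read 38548 against 20075 (log2 ratio 0.94), while the other 4 read 3795 against 5943, 2818 against 3961, 1113 against 1878 and 297 against 441, all lower in gamma/delta cells. With its probe sets averaged the log2 ratio was -0.30, and after loess it was 1.19, so no direction is given for Hnrnpu.

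Hnrnpul2, a paralogue of Hnrnpu, had 1 probe set at 4014 against 2095 and another at 1731 against 3419. The pair points in opposite directions by nearly the same amount. Hnrnpk, a poly-C binding protein, was bright and nearly equal at 51563 against 49349, 48721 against 42256 and 34425 against 35360.4. A dimmer probe set read 1897 against 842, a log2 ratio of 1.17. Hnrnpr, which acts in splicing and mRNA transport, was higher in gamma/delta cells on 3 of 4 probe sets, the brightest at 9059 against 5055. Hnrnpm and Hnrnpul1 had log2 ratios of -0.18 and 0.06.

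Srsf genes leaned towards alpha/beta cells. By gene 7 of the 9 with a ratio were lower in gamma/delta cells (77.8%, beside 47.6% of all genes). The 7 include Srsf6 at -0.02 and Srsf3 at -0.13. By probe set 19 of 30 were lower (63.3%), beside 59.6% of all member probe sets and 49.5% over the array. The medians were -0.27 by gene and -0.20 by probe set. The gene median stayed below 0 under all 8 alternatives, from -0.34 to -0.17.

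Srsf2, or SC35, an SR protein that binds exonic enhancers and marks nuclear speckles, was by its main probe set the furthest towards alpha/beta cells of the members above the floor on both arrays. That probe set read 2804 in gamma/delta against 7556 in alpha/beta cells, 2.70-fold. Others read 2954 and 4499, and 354 and 501, in the same direction by less. The last read 271 and 119.5, under the floor in alpha/beta cells. The log2 ratio was -0.34 with probe sets averaged, and the call of Srsf2 rests on 1 probe set of 4. Srsf4, an SR protein with a long RS domain, read 81.8 and 504 on its 1 probe set with a bound of 2.07-fold towards alpha/beta cells. The bound is set by the floor: the log2 ratio was -0.17 under a 70th percentile floor, -1.96 under a 30th percentile floor and -2.62 with none.

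Srsf1, the founding SR protein, read 15987 against 11614 on its main probe set (log2 ratio 0.46), and its 6 measured probe sets spanned -0.62 to 0.55. Srsf3, the smallest of the classical SR proteins, read 15814 against 17355 (-0.13), and its 6 spanned -0.33 to 0.98. Neither has a common direction, and the main value of Srsf3 was 0.07 after loess and 0.02 after quantile normalization. Srsf6, by contrast, was lower in gamma/delta cells on all 4 probe sets, by -0.65 to -0.02. Srsf11 was lower on all 3 with a ratio, by -0.91 to -0.05, and Srsf10, a splicing repressor when dephosphorylated, on 3 of 4 with a main value of -0.27. Srsf5 read 7403 against 10508.5 on 1 probe set, and Srsf9 675 against 639.

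**Figure D3:**
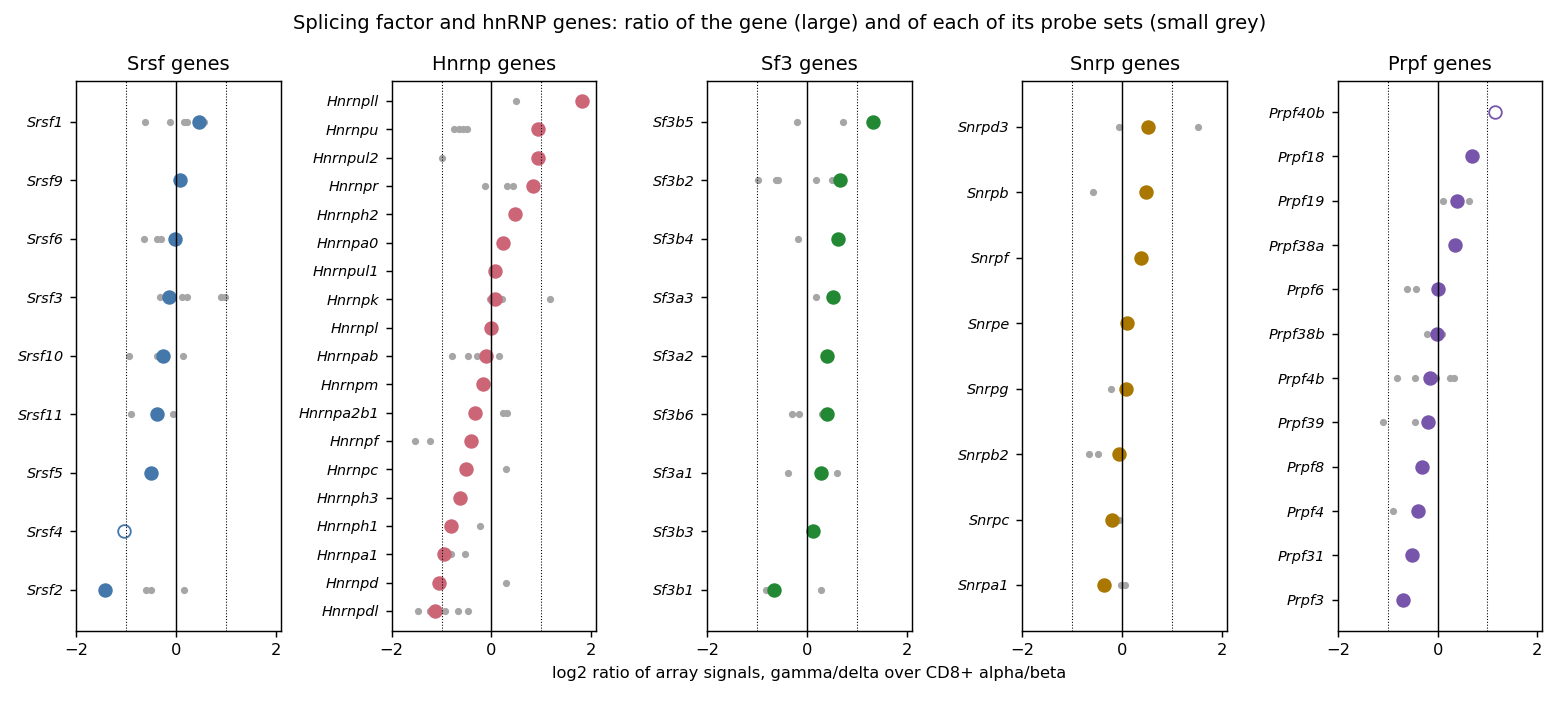
Log2 ratios (x, gamma/delta over alpha/beta) for the 57 member genes with a ratio, by family and in order of size. Large points are the gene's value, open where it is a bound, small grey points the other probe sets, and dotted lines mark 2-fold. Most genes lie within the dotted lines, from Srsf2 at -1.43 to Hnrnpll at 1.81, and many have grey points on both sides of 0.

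SF3 genes read by their main probe set leaned the other way. Of 9 genes, 8 were higher in gamma/delta cells (88.9%, beside 52.4% of all genes), with a median log2 ratio of 0.41. By probe set the count was 15 of 26 (57.7%, beside 50.5% over the array). The gene median was -0.05 when probe sets were averaged, so the lean depends on which probe set stands for a gene.

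Sf3b5, a small structural subunit of SF3b, read 629.8 in gamma/delta against 251 in alpha/beta cells on its main probe set, 2.51-fold. Its second probe set read 452 and 275 and another 244 and 279.9. Under a 70th percentile floor the log2 ratio was at least 0.49, and with probe sets averaged it was 0.61. The call therefore rests on 1 probe set near the floor. Sf3b1, the subunit that clamps the branch site, was the exception of the family. It read 8079 against 12724, 6787 against 11021 and 964 against 1702 on 3 probe sets, all lower in gamma/delta cells, and 1062 against 869 on the other. Its log2 ratio was -0.66 by the main probe set.

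Among the other SF3b subunits, Sf3b2 had 3 probe sets on each side, from -0.98 to 0.67 with the main one at 0.67, and Sf3b4 had values of 0.63 and -0.17. Sf3b6, which touches the branch site adenosine, had 2 on each side, from -0.30 to 0.41, and Sf3b3 stood at 0.13. In SF3a, Sf3a3 was higher in gamma/delta cells on both probe sets (0.52 and 0.18), Sf3a2 on the 1 with a ratio (0.41) and Sf3a1 on 2 of 3.

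Snrp genes differed little, and none reached 2-fold by gene. Their median was 0.08, but -0.06 with probe sets averaged and -0.20 without suffixed probe sets (_x_at, _s_at and _a_at). All 5 Sm ring genes with a ratio were above 0 by the main probe set, though 6 of 9 probe sets were. Snrpb, which encodes the SmB and SmB' proteins, read 5291 against 3784 on the main probe set and 413 against 617 on the other, in opposite directions. Snrpd3 read 3593 against 2519.9 and 641 against 666, and another probe set, at 722 against 251, had a log2 ratio of 1.52. Snrpe and Snrpg were nearly equal, at 6811 against 6407 and 6522 against 6175. Snrpf read 1071 against 830.3. The U1 protein gene Snrpc (-0.20) and the U2 protein genes Snrpa1 (-0.36) and Snrpb2 (-0.06) were on the lower side, and Snrpb2 was so on all 3 probe sets.

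Of 12 Prpf genes, 5 were higher and 7 lower in gamma/delta cells, with a median of -0.09. That median was 0.0023 after loess, -0.30 with probe sets averaged and -0.25 without suffixed probe sets (_x_at, _s_at and _a_at). Prpf40b, a homologue of a yeast U1-associated factor, read 542 in gamma/delta against 79.4 in alpha/beta cells on 1 probe set, at least 2.23-fold. Its log2 ratio, too, is set by the floor, at 0.28 under a 70th percentile floor, 2.06 under a 30th percentile floor and 2.77 with none. Tri-snRNP genes were lower in 4 of 6 cases and on 7 of 9 probe sets. Prpf3 read 570.02 against 924, Prpf31 605 against 859, Prpf4 951 against 1253 and Prpf8, the scaffold of the catalytic core, 383 against 473. Prpf6 had a log2 ratio of 0.01, with its other probe sets at -0.43 and -0.62. Prpf18, which acts in the second catalytic step, was on the other side at 512 against 317.

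Prpf19, the ubiquitin ligase of the Prp19 complex, was higher in gamma/delta cells on all 4 probe sets with a ratio, at log2 ratios from 0.10 to 0.62. Prpf39, a U1-associated factor, was lower on all 3, from -1.09 to -0.20. Prpf4b, a kinase of the spliceosome, had 4 probe sets below 0 and 2 above, with the main one at -0.16 (0.01 after loess). Prpf38a and Prpf38b had log2 ratios of 0.36 and -0.01.

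Probe sets of a single gene disagreed often. Of 38 member genes with at least 2 probe sets with a ratio, 25 (65.8%) had probe sets on both sides of 0, beside 52.8% of 4890 genes on the array. In 14 of the 25 the extremes were at least 2-fold apart. The 10 genes with every probe set lower in gamma/delta cells include Hnrnpdl, Hnrnpa1, Hnrnpf, Hnrnph1, Srsf6, Srsf11 and Prpf39, and the 3 with every probe set higher were Hnrnpll, Prpf19 and Sf3a3. The matching counts over the array are not given, so the 10 and 3 are a description only. Another 16 member genes had 1 probe set in all.

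**Figure D4:**
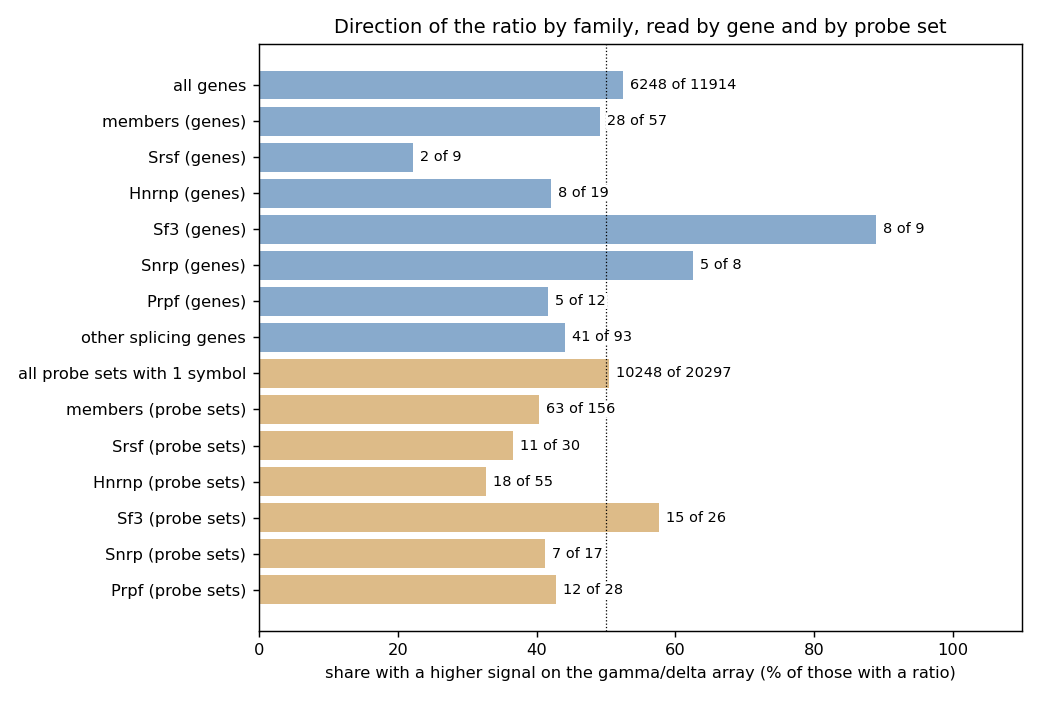
Share of genes (blue) and probe sets (tan) with a higher signal on the gamma/delta array (x, percent of those with a ratio), for the array, the members and each family, with the counts beside the bars. The Sf3 bar drops from 8 of 9 genes to 15 of 26 probe sets. The Srsf, Hnrnp and Prpf bars, and those of all members, are left of the dotted line at 50% both ways.

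Other splicing genes, a list of 99 outside the member families, of which 94 were measured, were set beside them. Among the 93 with a ratio, 2 passed 2-fold towards gamma/delta and 5 towards alpha/beta cells (2.15% and 5.38%, against 5.82% and 3.93% of all genes), and the median log2 ratio was -0.09. Clk1, a kinase that phosphorylates SR proteins, read 4984 in gamma/delta against 12329 in alpha/beta cells, 2.47-fold. Mbnl1, a muscleblind splicing regulator, read 3585 and 8728, 2.43-fold, and was lower on all 3 probe sets. The RNA helicase Dhx9 differed by 2.12-fold in the same direction, and both its probe sets passed 2-fold. Syncrip, or hnRNP Q, was 2.25-fold higher there but ran from -1.17 to 0.76 over 5 probe sets, and Isy1 had a bound of -1.02 with another probe set at 0.70. Ddx17, an RNA helicase, was 2.73-fold higher in gamma/delta cells with probe sets from -0.62 to 1.45, and Dhx16, a helicase of the activated spliceosome, was 2.28-fold higher on its 1 probe set.

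Promoter letters, which the choice by name did not use, were searched next. RefSeq promoter windows of assembly GRCm38.p6, from 250 bases before to 50 after a gene's start, matched 53 of the 59 genes in 72 windows. On both strands 8 motifs were searched, each given here with its share, and none of them lies within another. CCGGAAG, the core letters bound by ETS family factors, stood in 24 of the 72 windows (33.3%), in 8.86% of all 32851 windows and in 15.6% of 12119 windows of genes with a ratio. GGGCGG stood in 62.5%, 35.7% and 56.6%, CCAAT in 48.6%, 37.4% and 37.4%, and TATAAA in 8.33%, 13.6% and 8.75%. In the same order, CACGTG stood in 11.1%, 7.15% and 9.22%, and GATAAG in 5.56%, 7.44% and 5.64%. ACTACAA stood in 4.17%, 3.24% and 3.95%, and TGACGTCA in 1.39%, 1.79% and 2.76%.

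Windows of 30 bases around CCGGAAG are printed for members on either side of the comparison, to show that the same letters stand before genes with opposite ratios. They run 5′ to 3′ on the gene's strand, capitals mark the motif or its reverse complement CTTCCGG, and positions count from the gene's start. Hnrnpd (chr5:99979098-99979127, minus strand, motif from position -178) and Srsf4 (chr4:131873416-131873445, plus, -210) were higher in alpha/beta cells, as was Srsf5 (chr12:80945465-80945494, plus, -23). Sf3b2 (chr19:5295450-5295479, minus, -11), Sf3a2 (chr10:80798648-80798677, plus, -76) and Prpf19 (chr19:10895152-10895181, plus, -68) were higher in gamma/delta cells by the main probe set.
Hnrnpd: tgcgcacgccaCTTCCGGtcctctttaaag
Srsf4: ccgcgcaggcaCTTCCGGgggaagtgccgc
Srsf5: ctggcaccgccCCGGAAGtgacgccaggac
Sf3b2: ggattacgcaaCCGGAAGtttctggaagta
Sf3a2: cgcctttgctcCCGGAAGggatcgcttcgt
Prpf19: tggagcgctcgCCGGAAGaagccgagccaa
Of the 19 member genes with the motif in a window, 10 were above and 9 below 0, with a median log2 ratio of 0.01. The 34 genes with a window and without it included 32 with a ratio, of which 12 were above and 20 below 0, with a median of -0.12. A match describes these letters only and says nothing of a bound factor.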

How the data were processed

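The deposited table holds 1 MAS5 signal intensity per probe set and array, on a linear scale, which, per the submitters' processing notes, the authors made with MAS5 and Affymetrix Expression Console 1.0. Its trimmed mean, leaving out 2% at each end, was 500.003 on both arrays, so the values were used as scaled. MAS5 subtracts an estimate of stray signal, which spreads dim values widely. Array annotation gave 34945 probe sets other than controls a single symbol; 16 probe sets that name a member beside another gene were left out. From these values the floor, log2 ratios and calls were computed in Python 3.11.15 with pandas 2.3.3 and statsmodels 0.14.6. The arithmetic of ratios and calls was tested on simulated data, which says nothing of replicate error. Named were all members past 2-fold, the 2 largest ratios per family and direction, 7 fixed genes, those nearest the call, those whose probe sets disagree by 2-fold, and other splicing genes past 2-fold; further members were named after their values were seen. Members, lists and motifs were chosen with earlier results of these data known. The number of arrays limits the precision. Alternatives covered 3 scalings, 3 floors, 2 probe set rules and a 1.5-fold call.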

Additional observations from a re-analysis of the deposited data

Results flagged for a closer look

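Probe sets that name a member beside another gene stand outside the comparisons, and 13 of these 16 had a ratio. Of the 13, 3 were 2-fold higher in alpha/beta cells, where 4.37% of all probe sets with 1 symbol were. In gamma/delta cells 0 were, beside 5.2%. All 3 name Hnrnpa1 together with its pseudogenes and so are not separate members. The 3 read 4915 in gamma/delta against 10009.5 in alpha/beta cells, 9598 against 21596.5 and 8719 against 18538, log2 ratios of -1.03, -1.17 and -1.09. They were noted because they carry a difference in data the gene comparison leaves out.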

How the results depend on the processing

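Under loess 5 member genes were 2-fold higher in gamma/delta cells, with Hnrnpu and Hnrnpul2 added, where 5.86% of all genes were, and the members' median log2 ratio was 0.063. Under a 70th percentile floor 1 was, Hnrnpll, where 5.2% of all genes were. With probe sets averaged, 2 members passed 2-fold towards alpha/beta cells (3.37% of all genes did), with a median of -0.15. Leaving out probe sets with the suffixes _x_at, _s_at and _a_at, Hnrnpd had a log2 ratio of 0.30 and Srsf2 one of 0.15, each by a probe set whose alpha/beta signal was under the floor. There, the median of the other splicing genes was -0.15. At a 1.5-fold call, 9 members were higher on each side, and of the other splicing genes 7 were higher in gamma/delta cells and 16 lower, beside 17% and 13.2% of all genes. Read by probe set, the members' 5 calls towards gamma/delta cells became 9 with the floor at the 30th percentile, 2 at the 70th and 11 with no floor, beside 8.28%, 4.5% and 17.9% of all probe sets. At 1.5-fold, 16 of 156 were higher in gamma/delta cells, a smaller share than the 15.5% of all probe sets. In alpha/beta cells 35 of 156 were higher, a larger share than 14.4%. Over the counts and medians of members and other splicing genes, 42 values under alternatives stayed close to those reported and 10 moved. The 10 include the counts at the 1.5-fold call, which a lower call can only keep or raise. There 3 and 4 members became 9 and 9, and 2 and 5 other splicing genes became 7 and 16. The cause of the other moves was not tested. Ratios near the floor are limited by signal over background. No paired analysis was possible because each population has 1 array.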

Other observations

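The other probe sets that name a member beside a second gene covered members which the gene comparison holds in part or not at all. Hnrnpa3, an A type hnRNP, was named with a pseudogene on 4 probe sets, whose log2 ratios were 0.11, -0.74, 0.81 and 0.13, with no common direction. The Sm ring genes Snrpd1 and Snrpd2, each on 1 probe set, had 0.09 and 0.44. The 5 Sm genes with a ratio in the gene comparison were also above 0 by the main probe set, but by probe set only 6 of 9 were. Snrpa, a U1 protein gene, read 361 against 228, a bound of 0.57. Snrpn, an imprinted relative of Snrpb that shares its transcript with Snurf, read 597 and 528, 489 and 542, and 508 and 517 on the 3 probe sets above the floor, and 3 others were under the floor on both arrays.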
